A study of Mus musculus with 6 samples.

Results

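The 7 genes described here encode mouse NKR-P1 receptors (Klrb1a, Klrb1b, Klrb1c and Klrb1f) and members of the Clec2 family, to which their ligands belong (Clec2d, Clec2g and Clec2i). They were taken by exact gene symbol from the 27763 gene rows of the deposited table, and each symbol matched 1 row. Poly(A) RNA was sequenced from spleen natural killer (NK) cells of 6-week-old wild-type C57BL/6 mice in 2 groups named DN NK and cNK, with 3 libraries each. The groups share strain, genotype, age and tissue, and no agent is named for either. The labels do not spell out the short names, the surface markers used to separate the cells or whether animals were pooled. By its title the study concerns immature spleen NK cells and T-bet, a T-box transcription factor, in their maturation.

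NKR-P1 receptors are C-type lectin-like proteins on NK cells and other innate lymphocytes. Inhibitory members carry a tyrosine-based motif that recruits the phosphatase SHP-1, whereas activating members signal through an adaptor chain of the Fc receptor family. Their known ligands are the Clr proteins encoded by Clec2 genes that lie among the receptor genes, and loss of Clr-b (Clec2d) from a target cell removes an inhibitory signal. NK1.1, the antigen long used to identify NK cells of C57BL/6 mice, is the product of Klrb1c. Whether NK1.1 served to sort these cells is not given in the sources used here, so a difference in Klrb1c is not known to be independent of the sort.

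All 7 genes lie on chromosome 6 (GRCm38) within 577 kb, in the order Klrb1a, Klrb1c, Klrb1b, Clec2i, Clec2g, Klrb1f and Clec2d. The spans given are those of the deposited table. Klrb1c (ENSMUSG00000030325) lies at chr6:128778485-128789215 and Klrb1b (ENSMUSG00000079298) at chr6:128813706-128826331, both on the minus strand. Klrb1a lies on the same strand at chr6:128609227-128623533. On the plus strand lie Klrb1f at chr6:129045901-129057464, Clec2d at chr6:129180615-129186534, Clec2i at chr6:128887588-128898167 and Clec2g at chr6:128934381-128984707.

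The 250 bases upstream of the start are shown for the 4 receptor genes, because they form pairs by their longest shared runs, and the genes of one pair changed in the same direction and those of the other in opposite directions. They come from the RefSeq promoter table on GRCm38.p6, are read 5′ to 3′ on the gene's strand and end at the base before the start. In each pair the capitals mark the longest run of bases that the pair has in common. Klrb1a and Klrb1c share a run of 41 bases found in no other gene's window among the 32851 listed.
Klrb1c, chr6:128788642-128788891, minus strand: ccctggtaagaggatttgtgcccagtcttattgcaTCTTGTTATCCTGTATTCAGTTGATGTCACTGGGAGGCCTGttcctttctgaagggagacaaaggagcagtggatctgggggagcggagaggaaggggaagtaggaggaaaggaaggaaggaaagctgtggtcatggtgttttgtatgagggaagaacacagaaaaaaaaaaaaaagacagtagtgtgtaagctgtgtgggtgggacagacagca
Klrb1a, chr6:128622935-128623184, minus strand: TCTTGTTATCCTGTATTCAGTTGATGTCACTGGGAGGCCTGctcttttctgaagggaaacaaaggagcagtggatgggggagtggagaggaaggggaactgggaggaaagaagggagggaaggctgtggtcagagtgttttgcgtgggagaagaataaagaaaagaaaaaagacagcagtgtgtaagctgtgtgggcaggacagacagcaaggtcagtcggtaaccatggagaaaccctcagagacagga
Klrb1b and Klrb1f share a run of 22 bases that is also found in no other gene's window.
Klrb1b, chr6:128826316-128826565, minus strand: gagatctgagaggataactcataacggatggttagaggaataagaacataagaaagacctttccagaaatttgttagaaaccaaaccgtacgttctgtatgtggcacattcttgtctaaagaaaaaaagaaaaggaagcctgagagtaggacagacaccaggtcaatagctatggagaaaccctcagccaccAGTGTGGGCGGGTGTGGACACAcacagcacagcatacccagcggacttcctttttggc
Klrb1f, chr6:129045651-129045900, plus strand: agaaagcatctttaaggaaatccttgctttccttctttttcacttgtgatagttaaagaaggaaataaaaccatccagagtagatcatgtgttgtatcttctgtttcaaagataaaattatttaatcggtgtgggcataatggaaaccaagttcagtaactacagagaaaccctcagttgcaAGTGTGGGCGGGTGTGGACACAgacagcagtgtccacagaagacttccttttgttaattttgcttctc
Local alignment of the same windows gave identity over longer stretches. The Klrb1a and Klrb1c windows were identical at 87.4% of 215 columns and the Klrb1b and Klrb1f windows at 68.5% of 178 columns. The Klrb1f window also aligned with that of Klrb1, a further receptor gene of the cluster, at 69.8% of 159 columns, with a longest shared run of 9 bases. The Klrb1b window aligned with that of Klrb1 at 63.4% of 243 columns, with a longest shared run of 10 bases. By alignment, Klrb1b and Klrb1f are therefore not a pair apart from Klrb1. The RefSeq starts of Klrb1a and Klrb1c lie 599 and 574 bases downstream of the starts in the deposited table, so other windows apply to longer transcripts. Klrb1b has a second RefSeq start a few bases away, and the first listed was used.

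The expression levels showed a change of the leading receptor. Klrb1b, the inhibitory NKR-P1B receptor gene (its C57BL/6 form is also called NKR-P1D), was the most abundant of the 7 in DN NK. Klrb1c, the gene of the activating receptor NKR-P1C, was the most abundant in cNK. Of the 7 genes, 6 were tested, and of these Klrb1b and Clec2i rose in DN NK while Klrb1c, Klrb1a, Clec2d and Klrb1f fell, by edgeR's quasi-likelihood test with Benjamini-Hochberg adjustment over 11690 rows at a threshold of 0.05. All 6 passed, against 61.7% of all tested rows (30.8% higher and 30.9% lower). For none of the 6 did FPKM overlap between the groups, which held for 70.3% of all tested rows, so neither count is particular to these genes. The values below are deposited FPKM (fragments scaled by transcript length and by library depth), and fold changes are those of the edgeR fit for DN NK over cNK. In bulk samples such as these, fewer cells of a type and less RNA per cell cannot be told apart.

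**Figure D1:**
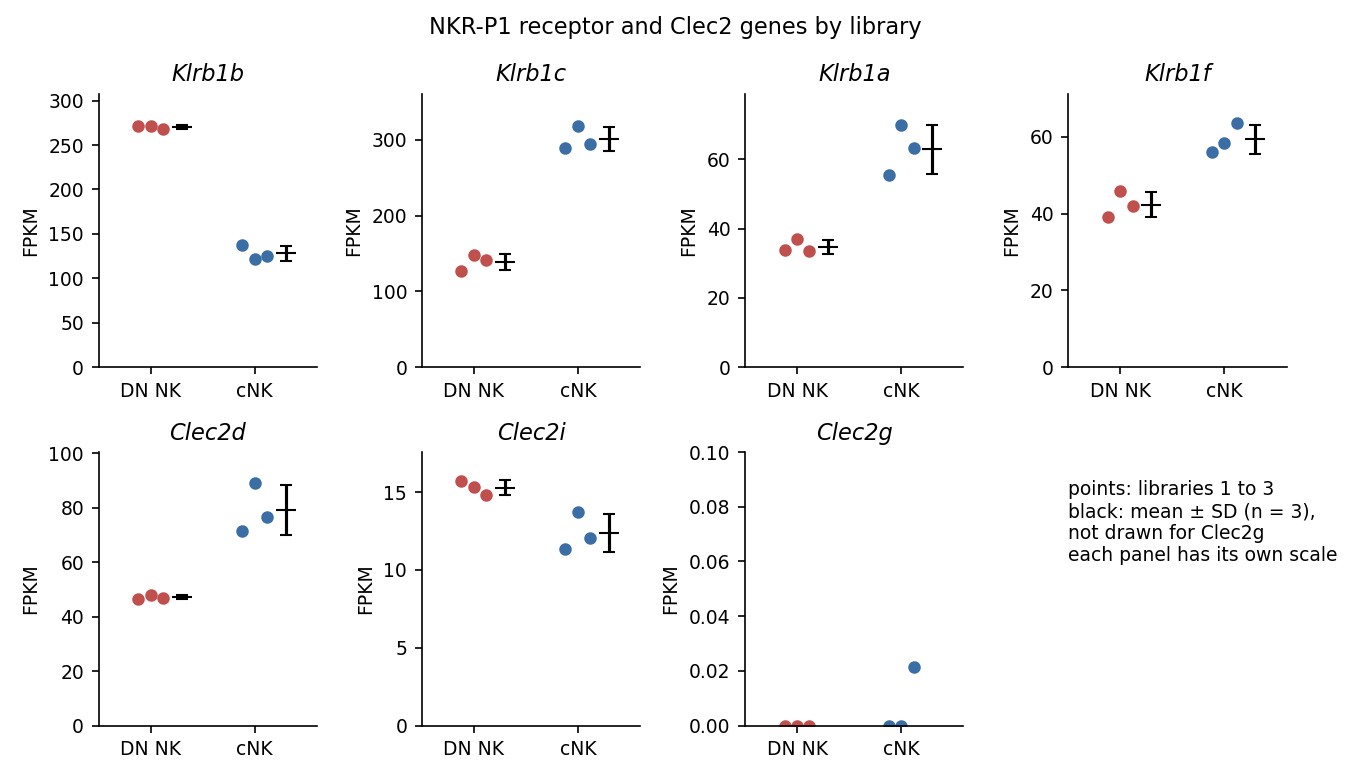
FPKM of the 7 genes in each library (points), with the mean ± SD of 3 libraries per group in black except for Clec2g, DN NK left of cNK and a linear axis from 0 in each panel. The points of the groups are apart for 6 genes, with Klrb1b and Clec2i higher and the other 4 lower in DN NK, and Clec2g is at or near 0 throughout.

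Klrb1b had 272, 271 and 268 FPKM in DN NK replicates 1, 2 and 3, against 138, 121 and 125 FPKM in cNK replicates 1, 2 and 3. Every DN NK library stood above every cNK library, and the DN NK libraries lay close together, at 270.3 ± 2.09 FPKM, against 128 ± 8.70 FPKM in cNK (SD, n = 3 each). The log2 fold change was 1.14 (SE 0.06, adjusted p = 2.40e-06, higher in 3 of 3 libraries), or 2.20-fold. A larger change in either direction was found in 10.3% of tested rows. In rank of mean FPKM among all rows, Klrb1b stood at place 174 in DN NK and at place 390 in cNK.

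Klrb1c had 127, 148 and 142 FPKM in DN NK, against 289.6, 319 and 294 FPKM in cNK. Every DN NK library stood below every cNK library, with means of 139 ± 10.6 FPKM in DN NK and 301 ± 15.6 FPKM in cNK (SD, n = 3 each). The log2 fold change was -1.05 (SE 0.06, adjusted p = 3.49e-06), a 2.07-fold lower level in DN NK. A larger change was found in 11.9% of tested rows, and 12.6% of tested rows passed with at least a 2-fold change, as Klrb1b and Klrb1c did. Klrb1c nevertheless kept a high level in DN NK, at place 339 of all rows by mean FPKM, against place 175 in cNK.

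Klrb1a encodes NKR-P1A, a receptor of the activating type. It had 33.8, 37.0 and 33.5 FPKM in DN NK, against 55.6, 69.8 and 63.2 FPKM in cNK. The highest DN NK library stood below the lowest cNK library. Means were 34.8 ± 1.94 FPKM in DN NK and 62.9 ± 7.09 FPKM in cNK (SD, n = 3 each), and the log2 fold change was -0.79 (SE 0.08, adjusted p = 5.50e-05). Klrb1f, which encodes NKR-P1F, a receptor for Clr-g, had 39.2, 45.8 and 42.0 FPKM in DN NK, against 56.1, 58.5 and 63.6 FPKM in cNK. Its groups were apart as well, at 42.3 ± 3.33 FPKM in DN NK and 59.4 ± 3.84 FPKM in cNK (SD, n = 3 each). The log2 fold change was -0.43 (SE 0.07, adjusted p = 0.000692). A larger change was found in 44.8% of tested rows.

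Among the Clec2 genes, Clec2d encodes Clr-b, the ligand of NKR-P1B that many blood cells display. It had 46.5, 47.9 and 46.9 FPKM in DN NK, against 71.4, 89.1 and 76.5 FPKM in cNK. Each DN NK library stood below each cNK library, with cNK replicate 2 the highest, and means were 47.1 ± 0.734 FPKM in DN NK and 79.0 ± 9.12 FPKM in cNK (SD, n = 3 each). The log2 fold change was -0.68 (SE 0.07, adjusted p = 8.18e-05). The receptor gene Klrb1b and the gene of its ligand thus changed in opposite directions.

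Clec2i encodes Clr-g, a ligand of NKR-P1F. It had 15.7, 15.3 and 14.8 FPKM in DN NK, against 11.3, 13.7 and 12.1 FPKM in cNK. The groups were narrowly apart, at 15.3 ± 0.461 FPKM in DN NK and 12.4 ± 1.22 FPKM in cNK (SD, n = 3 each). The log2 fold change of 0.37 (SE 0.07, adjusted p = 0.00262) was the smallest of the 6. A larger change was found in 51.0% of tested rows. Its receptor gene Klrb1f fell, so the receptor and ligand genes of this pair also changed in opposite directions.

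Clec2g, a further member of the Clec2 family, was at 0 in all 3 DN NK libraries and in cNK replicates 1 and 2. In cNK replicate 3 it held 6 estimated counts, about 2 read pairs, or 0.0216 FPKM. A count of 0 allows up to 3 read pairs per library, so both groups are at or under the limit, no fold change is given, and a difference was not detectable at this depth. The deposited row lists 1 transcript, of 368 bases, where GENCODE holds 6 for this gene. Reads of its other transcripts may therefore not be counted in this row. The 6 tested genes rest on 973 to 25128 read pairs per library.

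The order of levels on the FPKM scale, which is per length, was compared within each group. In DN NK it was Klrb1b, Klrb1c, Clec2d, Klrb1f, Klrb1a, Clec2i and Clec2g, and no neighbours overlapped over the 3 libraries. In cNK it was Klrb1c, Klrb1b, Clec2d, Klrb1a, Klrb1f, Clec2i and Clec2g, where Klrb1a and Klrb1f overlapped. Klrb1b averaged 1.94 times the FPKM of Klrb1c in DN NK, whereas in cNK Klrb1c averaged 2.35 times the FPKM of Klrb1b.

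Within each library the transcript levels of the receptor genes were compared as shares, because the genes share depth and processing. Such shares still depend on the transcript lengths used and on how reads of exons shared with other genes were divided. The summed FPKM of 5 receptor genes was used, the 4 above and Klrb1, which encodes the inhibitory receptor NKR-P1G. Klrb1b took 57.1, 53.6 and 54.8% of that sum in DN NK, against 25.1, 20.9 and 22.5% in cNK. Klrb1c took 26.8, 29.3 and 29.0% in DN NK, against 52.6, 54.9 and 52.8% in cNK. The shares of Klrb1a, Klrb1f and Klrb1 were also lower in every DN NK library, at means of 7.08, 8.63 and 0.79% in DN NK and 11.2, 10.6 and 2.05% in cNK. Shares within a library add up to a whole, so a larger share of Klrb1b by itself lowers those of the other genes. The sum itself was 476, 506 and 489 FPKM in DN NK, against 550.1, 581 and 558 FPKM in cNK, and the difference of the means was -72.5 FPKM. With estimated counts in place of FPKM, which are not per length, the share differences of Klrb1a, Klrb1f and Klrb1 were -2.31, -1.13 and -0.68 percentage points in place of -4.07, -1.93 and -1.26.

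**Figure D2:**
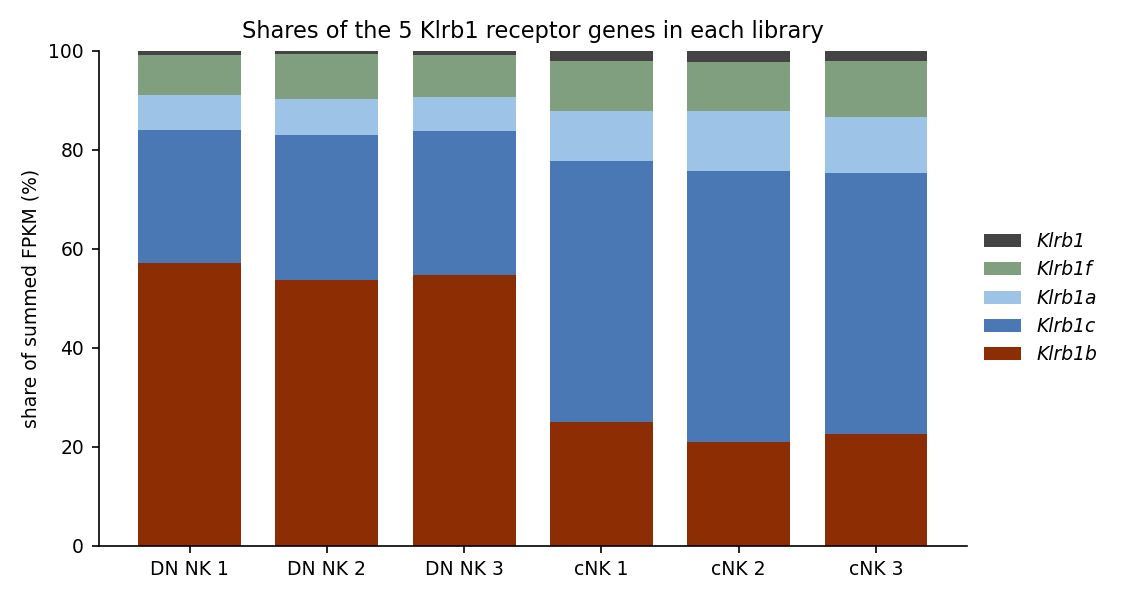
Share of the summed FPKM of 5 Klrb1 receptor genes that each gene takes in each library, as stacked bars from 0 to 100%, DN NK libraries left of cNK libraries. Klrb1b takes 53.6 to 57.1% in DN NK and 20.9 to 25.1% in cNK, while Klrb1c takes 26.8 to 29.3% in DN NK and 52.6 to 54.9% in cNK.

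The log2 ratio of Klrb1b to Klrb1c was 1.09, 0.87 and 0.92 in DN NK, against -1.07, -1.39 and -1.23 in cNK. It was positive in all DN NK and negative in all cNK libraries, and the means differed by 2.19. Among the ligand genes, the log2 ratio of Clec2i to Clec2d was -1.56, -1.65 and -1.66 in DN NK, against -2.65, -2.70 and -2.66 in cNK. Clec2d was thus the higher of these ligand genes in every library, by a smaller margin in DN NK, and the means differed by 1.05. A 2-sided exact permutation test over libraries gave p = 0.1 for both ratios, for each of the 5 shares and for the sum, which is the smallest value that 3 against 3 libraries allow. Adjusted over these 8 measures the exact p was also 0.1 (n = 3 each), so none could pass the threshold in this design. The shares and ratios come from the same values as the changes above and are not separate evidence.

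Of 9 further Klrb1 and Clec2 relatives looked for, 4 matched a row by symbol, and the other 5 were not analysed here. Klrb1 had 3.72, 3.67 and 4.22 FPKM in DN NK, against 10.9, 12.6 and 11.1 FPKM in cNK. Its groups were far apart, at 3.87 ± 0.307 FPKM in DN NK and 11.6 ± 0.953 FPKM in cNK (SD, n = 3 each), and its log2 fold change of -1.52 (SE 0.10, adjusted p = 5.96e-06) exceeded in size that of any of the 6 tested genes above. Of the inhibitory receptor genes, Klrb1b thus rose and Klrb1 fell. Clec2l, which lies on chromosome 6 outside the cluster, stood below the filter at 1.04, 0.44 and 0.76 FPKM in DN NK, against 0.08, 0 and 0.03 FPKM in cNK. These values rest on about 38, 16 and 27 read pairs in DN NK, against 3, 0 and 1 in cNK. As every cNK library was at or under the limit of 3 read pairs, no fold change is given. Clec2e and Clec2f had no reads except 4 estimated counts of Clec2e in cNK replicate 3 and 12 of Clec2f in DN NK replicate 2.

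**Figure D3:**
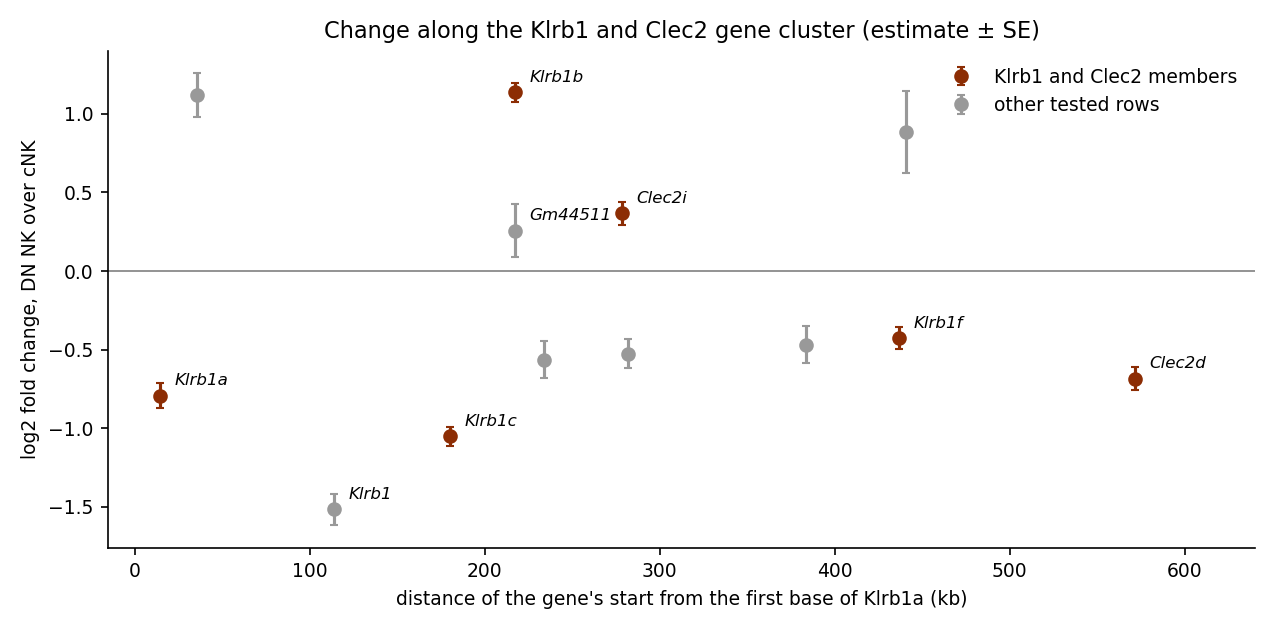
Log2 fold change (DN NK over cNK, ± SE) of the tested rows of the cluster against the distance of each gene's start from the first base of Klrb1a in kb. Klrb1b at 1.14 and Klrb1c at -1.05 are neighbours with opposite changes, and changes of both signs lie along the cluster.

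Changes of both signs lay along the cluster. Between the outermost of the 7 genes lay 25 rows, of which 13 were tested, and of the 7 tested rows that are not members 2 rose, 4 fell and 1 did not pass, where 61.7% of all tested rows passed in either direction. The row that did not pass is Gm44511, named here after its values were seen because its annotated exons join those of Klrb1c and Klrb1b. It shares 599 exonic bases with Klrb1b (26.9% of the exonic bases of that gene) and 413 with Klrb1c (13.95%). Its own row stood at 3.16, 2.84 and 2.54 FPKM in DN NK, against 2.59, 2.72 and 2.12 FPKM in cNK, with an edgeR log2 difference of 0.26 (SE 0.17, adjusted p = 0.215). These levels were small beside those of Klrb1b and Klrb1c, but how the authors' counting divided reads of the shared exons is not given in the sources used here.

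Sequence likeness between the genes could also place reads on the wrong gene. Of all 150-base windows of the listed transcripts, the length of 1 read, 19.4% in Klrb1b and 8.73% in Klrb1c occur in another GENCODE gene, and that gene is Gm44511 alone. No such window of Klrb1a, Klrb1f, Clec2d, Clec2i or Clec2g occurs in another gene. Over 50 bases the shares were 27.2% for Klrb1b, 17.0% for Klrb1c, 9.92% for Klrb1a, 2.03% for Clec2i and 0.95% for Clec2d, and 0 for Klrb1f and Clec2g. No exon of another annotated gene overlaps the exons of Klrb1a, Klrb1f, Clec2d, Clec2i or Clec2g on either strand.

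In the upstream windows, 3 short motifs were searched on both strands, with matches counted for each motif on its own even where motifs overlap. The T-box core GGTGTGA occurred in none of the 8 windows of the 7 genes and Klrb1, and in 3.33% of all listed windows. The Runx core TGTGGT occurred in Klrb1a and Klrb1c, and in 14.0% of all windows. The Ets core GGAAGT occurred in Klrb1b, Klrb1c and Klrb1f, and in 19.7% of all windows. Klrb1b and Klrb1f, whose windows share a longer run with each other than with Klrb1c, changed in opposite directions, while the closely alike pair Klrb1a and Klrb1c both fell. Klrb1b alone of the receptor genes, Klrb1 included, rose, so any pair without it shares a direction. A link between likeness of the windows and direction of change was not tested.

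Among genes listed here for NKR-P1 signalling, changes of both signs were found. The list was drawn up for this report, and a role of each gene in NKR-P1 signalling was not tested. Of 18 listed genes 17 were tested, of which 11 fell, 4 rose and 2 did not pass, where 30.9% of all tested rows fell and 30.8% rose. The 17 had a median log2 fold change of -0.34, against -0.02 over all tested rows. The adaptor Fcer1g, through which activating NKR-P1 receptors signal, had 259, 280.5 and 289 FPKM in DN NK, against 418, 438 and 404 FPKM in cNK. The groups did not overlap, and edgeR gave -0.54 on the log2 scale (SE 0.05, adjusted p = 3.38e-05). Among the 17 tested genes the largest change was that of Cd247, the CD3 zeta chain, at -1.14 (SE 0.05, adjusted p = 4.43e-07). Tyrobp, the DAP12 adaptor and the most abundant gene of the list, had 634, 724 and 699 FPKM in DN NK, against 1042, 1031 and 1031 FPKM in cNK.

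Kinases and downstream adaptors differed in direction. Lck, a Src family kinase that binds NKR-P1 tails, fell by 0.45 on the log2 scale, and Fyn, of the same family, fell by 0.52. Syk, a kinase recruited to phosphorylated adaptors, had 23.6, 24.6 and 25.6 FPKM in DN NK, against 40.8, 41.9 and 41.5 FPKM in cNK. Its relative Zap70 did not pass (edgeR log2 value 0.05, adjusted p = 0.395), and its groups overlapped. The scaffold genes Lat and Lat2 changed in opposite directions, with log2 fold changes of 0.56 and -0.65. Lcp2 (SLP-76) and Plcg2 (phospholipase C gamma) rose, both with a log2 fold change of 0.43, while Vav1 lay at -0.02 and did not pass.

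The phosphatase genes gave no single direction. Ptpn6, which encodes the SHP-1 phosphatase recruited by NKR-P1B, had 18.5, 20.9 and 21.5 FPKM in DN NK, against 23.4, 28.3 and 28.9 FPKM in cNK. The edgeR estimate was -0.34 on the log2 scale (SE 0.08, adjusted p = 0.00698), opposite in sign to that of Klrb1b. Ptpn11 (SHP-2), Ptprc (CD45) and the ubiquitin ligase gene Cbl fell by 0.20, 0.31 and 0.34 on the log2 scale. Inpp5d, which encodes the lipid phosphatase SHIP-1, rose by 0.47 on the log2 scale (SE 0.04, edgeR adjusted p = 3.80e-05). Plcg1 lay below the filter, with 1.01, 0.729 and 0.627 FPKM in DN NK, against 0.229, 0.321 and 0.280 FPKM in cNK. Fitted without a filter, where 31.3% of 27763 rows passed, it was higher in DN NK by 1.50 on the log2 scale (SE 0.20, edgeR adjusted p = 6.45e-05), a larger change than that of Cd247 in the same fit (-1.20).

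**Figure D4:**
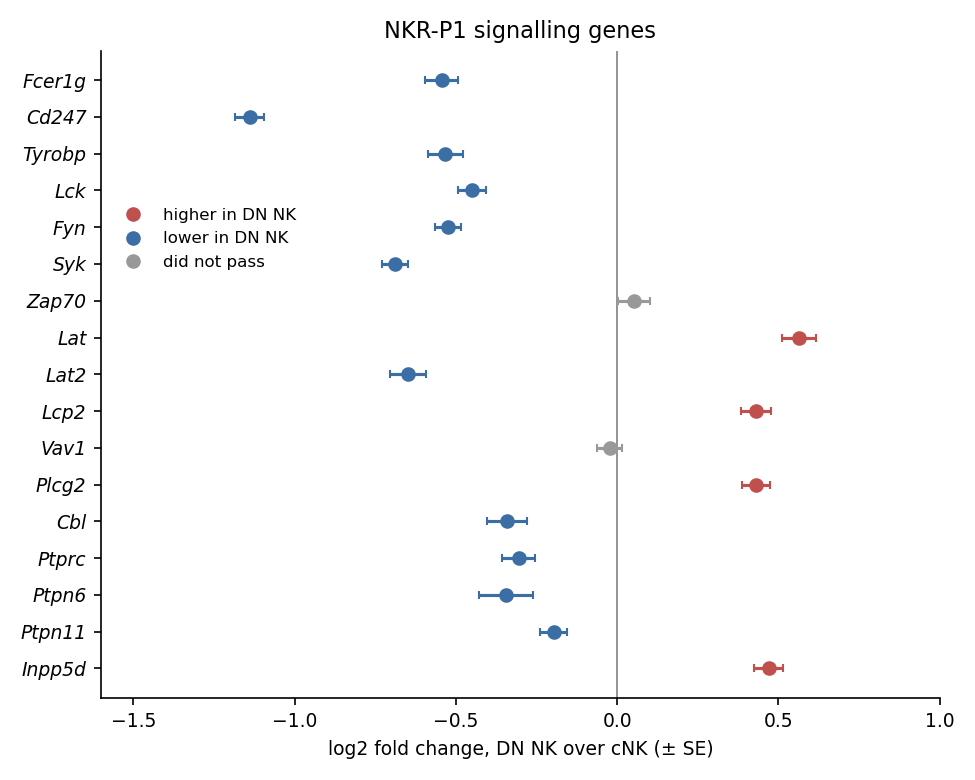
Log2 fold change (DN NK over cNK, ± SE) of the 17 tested genes of the NKR-P1 signalling list, ordered from adaptors at the top through kinases and scaffolds to phosphatases at the bottom. Points left of 0 are lower in DN NK, and 11 of the 17 are lower and past the threshold.

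The tested rows nearest in pattern were found by Euclidean distance over the 6 libraries, on log2(FPKM + 1) centred on each gene's mean. Member genes, gene models and clones (such as Gm and Rik names) and immunoglobulin and T cell receptor genes were left out of this ranking. Among the remaining rows, the nearest to Klrb1b were Dhx40, Top1 and Ppp1r16b, at distances of 0.06, 0.09 and 0.09. For Klrb1c they were Tmcc1, Elmo2 and Ywhah at 0.04, 0.07 and 0.08, and for Clec2d they were Rrm2b, Rbl1 and Bin3 at 0.06, 0.09 and 0.09. With 2 groups of 3 libraries, such distances mainly reflect a like difference between the groups.

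Markers of the cells and of other cell types moved with the same comparison. Of 8 NK markers, such as Ncr1 and Nkg7, all were expressed in both groups and 7 fell, as did 30.9% of all tested rows. Summed levels of the NK markers were 1891 to 2168 FPKM in DN NK and 3558 to 3713 FPKM in cNK. Il2rb, the largest part of the sums in DN NK, overlapped between the groups. It had 708, 765 and 806 FPKM in DN NK, against 764, 709 and 768 FPKM in cNK. All tested markers of T cells (5 of 10 tested), B cells (8 of 10), plasma cells (3 of 6) and ILC2 or ILC3 (3 of 9) rose, as did 30.8% of all tested rows. Without a filter 9 of 10, 10 of 10, 5 of 6 and 5 of 9 were higher, where 31.3% of all rows passed in either direction. Of these lists 4, 1, 1 and 1 markers averaged at least 1 FPKM in cNK, so that the filter took most of the rest for their level in DN NK. Their summed levels were 235 to 248, 155 to 214, 52.3 to 61.9 and 23.6 to 25.8 FPKM in DN NK, against 141 to 147, 93.6 to 96.5, 22.6 to 24.1 and 14.2 to 16.5 FPKM in cNK. In both groups most of each sum came from 1 gene, which was Trbc2, Ighm, Xbp1 and Gata3 in turn. Trbc2 had 166, 179 and 178 FPKM in DN NK, against 133, 134 and 126 FPKM in cNK. Ighm had 170, 136 and 126 FPKM in DN NK, against 93.8, 95.6 and 92.4 FPKM in cNK. The sums thus mainly give the levels of these genes. None of the T cell, B cell or plasma cell markers was at 0 in a whole group, and of ILC2 or ILC3 markers 1 was at 0 in DN NK and 2 in cNK. Of the tested markers of monocytes and macrophages (2), dendritic cells (3) and erythroid cells (4), 0, 2 and 3 rose and 1, 1 and 0 fell. Of all tested rows 30.8% rose and 30.9% fell. Their summed levels were 21.3 to 24.2, 133 to 143 and 42.5 to 60.8 FPKM in DN NK. In cNK the sums were 41.7 to 47.0, 184 to 197 and 33.1 to 40.7 FPKM. In both groups most of the monocyte and macrophage sum came from Ly6c2, and most of the dendritic cell sum from Itgax. Ly6c2 had 15.07 to 17.04 FPKM in DN NK, against 34.7 to 38.9 FPKM in cNK. Itgax had 119 to 131 FPKM in DN NK, against 182 to 195 FPKM in cNK. These sums thus mainly give the levels of Ly6c2 and Itgax, and which cells those transcripts came from was not tested. The dendritic cell markers Batf3 and Zbtb46 were higher in every DN NK library than in any cNK library, against the direction of their sum. No neutrophil or platelet marker passed the filter, and their sums were at most 0.636 and 1.09 FPKM in DN NK and 0 and 1.11 FPKM in cNK. Members of the NKR-P1 and Clec2 families are also known from T cells and other innate lymphoid cells, and the part of such cells in the differences was not tested.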

How the data were processed

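Per the labels' protocols, poly(A) RNA was made into TruSeq RNA v2 libraries, which do not mark strand, and read as pairs of 150 bases. HISAT, StringTie and edgeR are named, without versions, in the submitters' processing notes, with GRCm38 (mm10) as the build. Per the file headers, the authors deposited FPKM and a count per gene row and library. The deposited counts were treated as estimated counts: in rows with 1 transcript, 87.8 to 89.2% of low values (30 or less) match the product of FPKM, transcript length and a library constant when rounded up, and 1 read pair is worth about 3.73 of them. Estimated counts totalled 79798234 to 81437724 per library in DN NK and 84270567 to 89526647 in cNK. Floors cover counting error only.

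Testing was limited to the 11690 rows that reached 1 FPKM in 3 or more libraries (99.26% of the counts), with edgeR 4.0.16 in R 4.3.3, using TMM factors of 0.972 to 1.03, robust quasi-likelihood, group as the only term and 2-sided tests adjusted over all rows. The 6 tested genes exceed this filter in every library. The common biological coefficient of variation, the square root of edgeR's common dispersion on estimated counts, was 13.5%. The standard error is the log2 fold change divided by the square root of F. Limma 3.58.1, DESeq2 1.42.0 and other scalings and filters were alternatives. The code was tested on simulated data. The first principal component of log2(FPKM + 1) held 82.8% of variance, with the groups apart. The labels do not say whether libraries come from separate mice, so p-values may measure technical spread only.

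The members and gene lists were chosen with earlier results of these data known. Genes named are the 7 members, the relatives, the signalling genes and the 3 nearest rows of each of 3 members. Gm44511 and some markers were also named, and motifs were chosen, after the data were seen. Of 27763 gene identifiers, 27695 were found in GENCODE M21 (GRCm38), which gave exons and transcripts. Marker lists covered NK cells, T cells, B cells, plasma cells, ILC2 and ILC3, monocytes and macrophages, dendritic cells, neutrophils, erythroid cells and platelets. Alignments used Biopython 1.88.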

Additional observations from a re-analysis of the deposited data

How the results depend on the processing

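All 6 tested genes kept their direction and stayed past the threshold in each of 16 alternatives: other scalings, filters, DESeq2, limma on FPKM with either pseudocount, counts per read pair, each library left out and the replicate block. The log2 fold change ranged from 1.05 to 1.20 for Klrb1b, from -1.14 to -1.01 for Klrb1c, from -0.88 to -0.72 for Klrb1a, from -0.51 to -0.38 for Klrb1f, from -0.77 to -0.60 for Clec2d and from 0.28 to 0.44 for Clec2i. The highest adjusted p was 0.0136, for Clec2i without DN NK replicate 1, with edgeR. Signalling genes that rose numbered 4 to 5 and those that fell 11 to 12. With a mean of at least 5 FPKM, 4614 rows passed in place of 7215, since fewer rows were tested. With the replicate block the values for Klrb1b and Klrb1c were 1.14 and -1.05, and 7222 rows passed. Same-numbered libraries deviated together only weakly (correlations of 0.106, 0.0906 and 0.152), though each library correlated best with its own number, so the number is not known to pair them. The 5 share differences and the ratio of Klrb1b to Klrb1c kept their sign with each library left out and with estimated counts in place of FPKM, where the share difference of Klrb1b was 31.7 and that of Klrb1c -27.6 percentage points. The sum over the receptor genes and its alternatives were chosen after the data were seen.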
